A study of Mus musculus with 16 samples.

Results

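The genes described here encode serotonin receptors, and they were chosen by name: Htr1a, Htr1b, Htr1d, Htr1f, Htr2a, Htr2c, Htr4, Htr5a, Htr5b and Htr7. Of these 10 genes, 9 had a row among the 14504 genes listed in the table of normalized counts, and Htr1f had none. Among 4 further family genes looked up, Htr6 had a row and Htr2b, Htr3a and Htr3b did not. RNA was sequenced from punches of the dorsal raphe nucleus (DRN), main source of serotonin for the forebrain, of adult male C57BL/6 mice in 16 libraries. Stressed mice had lived through 30 days of chronic social defeat by aggressive CD1 males and were classed by their behavior as passive coping (PS, titled dep1 in the labels) or active coping (AS, titled dep2), while controls were not defeated. Mice of each class were injected with saline or with dexamethasone (DEX, 2 mg/kg), an agonist of the glucocorticoid receptor, 6 h before the brain was taken. There were 3 control saline libraries (con_sal_102, con_sal_104 and con_sal_114), 3 control DEX (con_dex_101, con_dex_116 and con_dex_122), 2 PS saline (dep1_sal_62 and dep1_sal_68), 3 PS DEX (dep1_dex_6, dep1_dex_34 and dep1_dex_64), 3 AS saline (dep2_sal_8, dep2_sal_14 and dep2_sal_40) and 2 AS DEX (dep2_dex_38 and dep2_dex_42). Values for single libraries are given in this order throughout. The study's methods say that DRN samples with Tph2 below an outlier threshold were left out, so the Tph2 level of every group was bounded by that choice. The samples left out were all from stressed mice given DEX.

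Serotonin receptors other than the Htr3 channels are G protein-coupled. The Htr1 and Htr5 classes couple mainly to Gi/o proteins, which lower cAMP and open potassium channels, the Htr2 class couples to Gq proteins, which act through phospholipase C, and Htr4, Htr6 and Htr7 couple to Gs proteins, which raise cAMP. In the DRN, Htr1a is the autoreceptor on the cell bodies and dendrites of serotonin neurons and slows their firing. Htr1b and Htr1d serve as autoreceptors that limit serotonin release. Htr2a and Htr2c are found largely on neighboring neurons, many of them GABAergic.

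The libraries held 38207157 to 62447298 reads in the listed genes. Tph2, the rate-limiting enzyme of serotonin synthesis in neurons, ranged from 91764 to 182191 normalized counts and Slc6a4, the serotonin transporter, from 74627 to 129820 normalized counts. RNA of serotonin neurons was thus present in every library, although the study had already left out samples low in Tph2. Ttr, a marker of the choroid plexus, ranged from 0 to 101.6 normalized counts, and 4 of 10 choroid plexus markers (Kl, Aqp1, Kcnj13 and Slc4a5) had no row. Markers of other cells varied widely. Summed ependymal cell markers ranged from 1993 (dep1_dex_6) to 24299 (dep1_dex_64) normalized counts within PS DEX alone. The mean log2 deviation of motor neuron markers ranged from -2.56 (con_sal_114) to 1.85 (dep1_sal_68). Fkbp5, a co-chaperone gene induced by glucocorticoids, lay between 1241 and 1536 normalized counts in the saline libraries and between 5578 and 6958 normalized counts in the DEX libraries, so every library matched its treatment label.

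Per length of merged exons, Htr1a was the most abundant receptor gene and Htr4 the least, although Htr2c ranked first when its longest transcript was used. Levels of different genes were compared as reads per kilobase of merged exons per 1000000 reads in the listed genes. The mean per-length level over all libraries was 27.4 ± 3.39 (SD, n = 16) for Htr1a, 15.8 ± 2.24 for Htr2c, 9.59 ± 1.104 for Htr1b, 8.05 ± 2.47 for Htr1d, 7.87 ± 2.65 for Htr5b, 5.88 ± 1.02 for Htr7, 3.13 ± 0.575 for Htr5a, 1.41 ± 0.328 for Htr2a and 0.944 ± 0.223 for Htr4. Htr6, outside the chosen genes, had a per-length level of 0.950 ± 0.194 (SD, n = 16), close to that of Htr4. For scale, the per-length level of Tph2 was 926 ± 183 (SD, n = 16) and that of Slc6a4 was 456 ± 63.6. The per-length level of Htr1a was above those of 88.1% of the genes with a known length, and that of Htr4 above those of 6.04%.

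**Figure D1:**
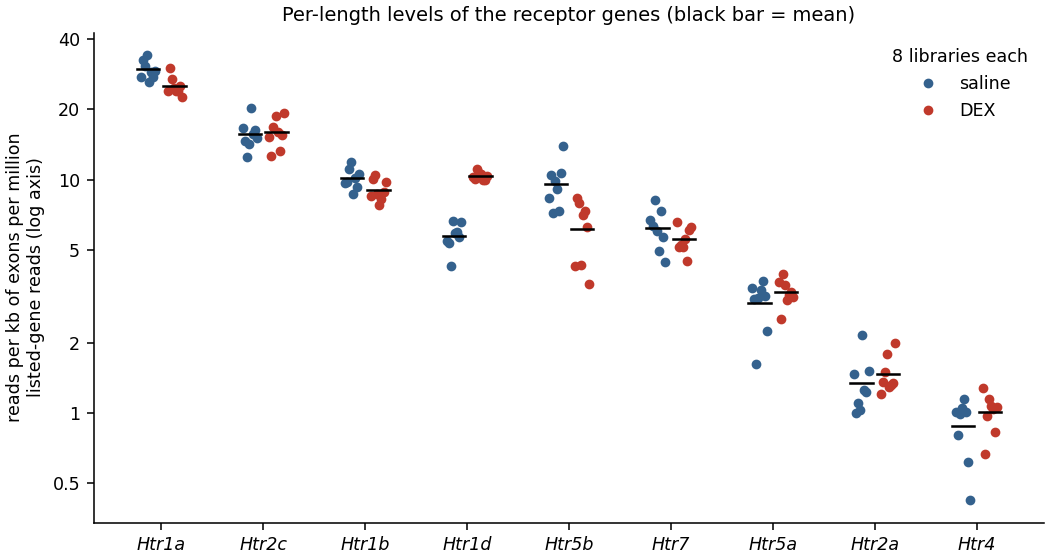
Reads per kilobase of merged exons per 1000000 listed-gene reads (vertical log axis) for the 9 receptor genes, ordered by mean, with 8 saline libraries in blue and 8 DEX libraries in red. Points are libraries and black bars are means. Htr1a is at the top in both treatments, and Htr1d is the gene whose saline and DEX points do not overlap.

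Neighbors in this order did not always keep their places in every library. Htr1a lay above Htr2c in 16 of 16 libraries, and Htr2c lay above Htr1b in 16 of 16, as did Htr7 over Htr5a and Htr5a over Htr2a. In contrast, Htr1b exceeded Htr1d in 9 of 16 libraries, Htr1d exceeded Htr5b in 8 of 16 and Htr5b exceeded Htr7 in 12 of 16. The place of Htr1d differed between treatments. In the saline libraries it ranged from 4.27 to 6.62, below Htr5b (7.22 to 13.9) and Htr1b (8.69 to 11.9). In the DEX libraries it ranged from 9.98 to 11.1, above Htr5b (3.58 to 8.34) but overlapping Htr1b (7.79 to 10.42). Htr2a exceeded Htr4 in 14 of 16 libraries. The place of Htr2c depended on the length assigned to it. Its merged exons span 9328 bases and its longest transcript 4883 bases, and with the latter its mean per-length level was 30.2, above the 27.4 of Htr1a.

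The middle of the order moved with treatment. In the 8 saline libraries the mean per-length level was 10.1 for Htr1b, 9.61 for Htr5b, 6.20 for Htr7 and 5.73 for Htr1d, whereas in the 8 DEX libraries it was 10.4 for Htr1d, 9.05 for Htr1b, 6.14 for Htr5b and 5.56 for Htr7. As a share of the per-length levels summed over the 9 genes, Htr1d made up 6.21% ± 0.658 (SD, n = 3) in control saline and 13.1% ± 0.647 (SD, n = 3) in control DEX libraries. Its share was 7.36% ± 0.216 (SD, n = 2) in PS saline, 13.7% ± 0.118 (SD, n = 3) in PS DEX, 7.41% ± 0.402 (SD, n = 3) in AS saline and 13.1% ± 0.268 (SD, n = 2) in AS DEX libraries. The share of Htr1a was 37.6% ± 2.89 in control saline and 30.7% ± 2.57 in AS DEX libraries, the highest and the lowest of the 6 group means. A share falls when another member rises, so these values are not independent of each other.

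The genes also differed in how tightly replicates agreed. The residual SD within groups, on the log2 scale, was 0.13 for Htr1a, 0.14 for Htr1d and 0.14 for Htr1b, against a median of 0.21 over all genes. It was 0.43 for Htr5b, 0.38 for Htr4, 0.37 for Htr5a and 0.35 for Htr2a, at the 83.7th, 80.4th, 79.4th and 78.0th percentiles of all genes. Htr2c (0.24) and Htr7 (0.23) lay near the median. The Htr1 genes were therefore the members for which a change of a given size stood out most from the replicate error.

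**Figure D2:**
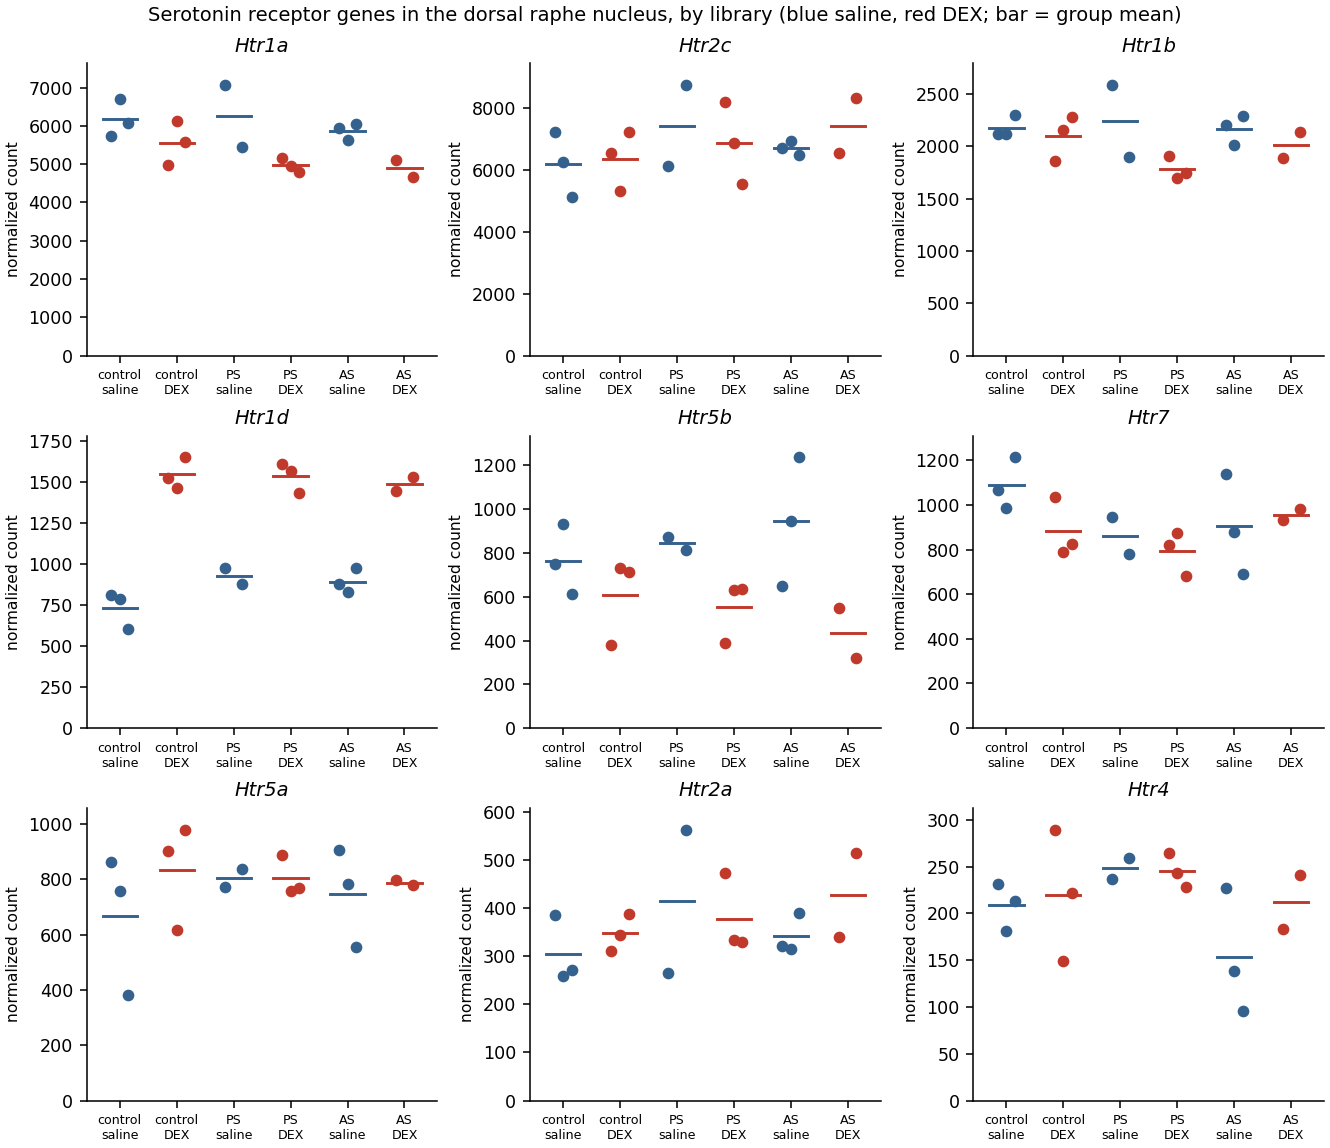
Normalized counts (vertical axes, from 0, a separate scale for each gene) of the 9 receptor genes in every library, by group along the horizontal axis. Points are libraries, blue for saline and red for DEX, and bars are group means. Htr1d in DEX libraries lies between 1430 and 1648, above all saline libraries, while the groups of Htr2c, Htr5a and Htr2a overlap.

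Htr1d, an inhibitory autoreceptor gene, rose with DEX in controls, PS and AS mice. The gene (ENSMUSG00000070687.11) spans chr4:136423524-136444398 on the plus strand of GRCm38. Its normalized counts in the control saline libraries were 812, 783 and 600.2, and in the control DEX libraries they were 1522, 1461 and 1648. In PS mice they were 976 and 875 with saline, and 1606, 1563 and 1429.6 with DEX. In AS mice they were 875, 829 and 972 with saline, and 1442 and 1530.2 with DEX. All 8 DEX libraries lay above all 8 saline libraries, and the groups did not overlap in any phenotype. Here and below, the share of all genes whose groups do not overlap was not counted, so such separation is description only. With limma, the log2 fold change was 1.09 (SE 0.12, adjusted p = 0.000461) in controls, 0.73 (SE 0.14, adjusted p = 0.0295) in PS and 0.74 (SE 0.14, adjusted p = 0.0267) in AS mice.

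Htr1d was 1 of 9 receptor genes called at an adjusted p under 0.1 in each of these comparisons. Over all genes, DEX called 1.26% in controls, 0.703% in PS and 0.689% in AS mice. The calls in PS and AS mice were lost without some single libraries, although the fold changes moved little. The adjusted p in PS mice was 0.119 without dep1_sal_62, 0.465 without dep1_sal_68 and 0.140 without dep1_dex_34, and in AS mice it was 0.125 without dep2_sal_14, 0.156 without dep2_dex_38 and 0.499 without dep2_dex_42, with log2 fold changes that stayed between 0.65 and 0.81. Without dep1_sal_62, dep1_sal_68, dep2_dex_38 or dep2_dex_42 an arm held 1 library, which was assumed to vary like the other groups. When only the AS groups entered the fit, the adjusted p was 0.436. In controls the call held without any single library.

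Averaged over the 3 phenotypes, the log2 fold change of Htr1d was 0.85 (SE 0.08, adjusted p = 1.24e-05), which ranked 26th of 14504 genes by p-value. With the average, 3 of 9 receptor genes were called, beside 4.31% of all genes. Htr1d was higher, and Htr1a and Htr5b were lower. The median log2 fold change over the 9 genes was 0.02, and it was -0.00256 over all genes, so the receptor genes did not shift together.

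**Figure D3:**
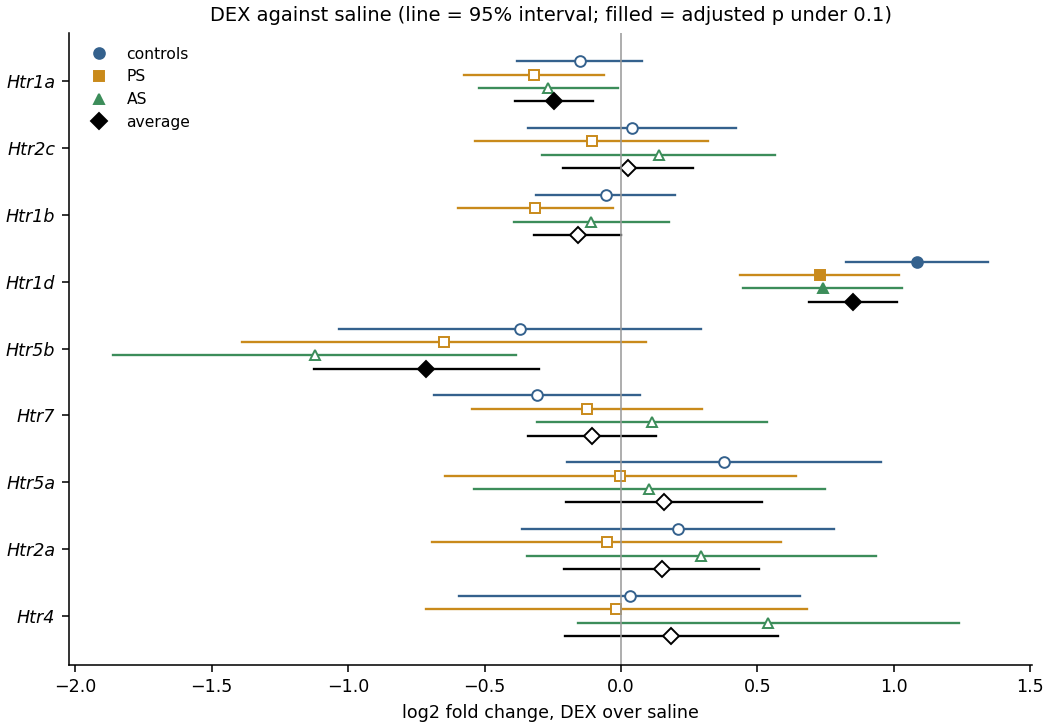
Log2 fold change of DEX over saline (horizontal axis) for the 9 receptor genes in controls, PS and AS mice and averaged over the phenotypes, with 95% intervals as lines and filled symbols for an adjusted p under 0.1. Htr1d lies to the right of 0 in each comparison, and the averages of Htr1a and Htr5b lie to the left of 0.

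The genes whose profiles over the 16 libraries were nearest to that of Htr1d were Sgk1, a glucocorticoid-induced kinase gene, Cdkn1a, which encodes a cell cycle inhibitor, and Fkbp5. The root mean square difference between standardized log2 profiles was 0.22 for Sgk1, 0.29 for Cdkn1a and 0.29 for Fkbp5, against a median of 1.38 over the genes compared. Their average log2 fold changes with DEX were 1.21, 2.77 and 2.15, all larger than that of Htr1d. All 3 belong to a list of 18 glucocorticoid target genes, of which 14 were called with DEX in controls, 12 each in PS and AS mice and 17 on average, each of them higher. Over all genes, DEX called 1.26% in controls, 0.703% in PS mice, 0.689% in AS mice and 4.31% in the average. The list was chosen with earlier results of these data known, so its counts are a description and not a test.

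Promoter windows from RefSeq (GRCm38.p6, 250 bases before to 50 after a transcript start) were matched by symbol for 7 of the 9 genes, with 2 windows for Htr1d; Htr4 and Htr5b had no entry. Because DEX acts through the glucocorticoid receptor, the windows were searched on both strands for the 6-base glucocorticoid response element unit AGAACA, for a palindrome of this unit with a 3-base spacer, and for the ETS core GGAA, which the serotonin neuron factor Fev recognizes. The unit was found in 1 of 8 receptor windows, that of Htr2a, at 168 bases before the start, and in 19.0% of all 32851 promoter windows. The palindrome was in none of the receptor windows and in 0.00913% of all windows, and the ETS core was in 7 of 8 receptor windows and in 96.0% of all windows. The bases before the annotated starts are shown for Htr1d, which rose with DEX, for Htr1a, which fell in the average, and for Htr2a, which holds the unit, on the plus strand 5′ to 3′, with GGAA, TTCC and the unit (TGTTCT on this strand) in capitals. They lie at chr4:136423274-136423523, chr13:105443443-105443638 and chr14:74640624-74640839.
Htr1d: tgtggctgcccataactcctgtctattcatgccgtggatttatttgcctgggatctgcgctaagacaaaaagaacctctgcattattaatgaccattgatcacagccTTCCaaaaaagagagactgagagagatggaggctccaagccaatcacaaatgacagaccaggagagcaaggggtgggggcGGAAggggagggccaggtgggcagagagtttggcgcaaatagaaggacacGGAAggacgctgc
Htr1a: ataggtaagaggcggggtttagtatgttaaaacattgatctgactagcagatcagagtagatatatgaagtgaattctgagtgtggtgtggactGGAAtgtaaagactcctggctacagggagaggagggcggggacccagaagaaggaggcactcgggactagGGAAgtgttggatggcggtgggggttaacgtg
Htr2a: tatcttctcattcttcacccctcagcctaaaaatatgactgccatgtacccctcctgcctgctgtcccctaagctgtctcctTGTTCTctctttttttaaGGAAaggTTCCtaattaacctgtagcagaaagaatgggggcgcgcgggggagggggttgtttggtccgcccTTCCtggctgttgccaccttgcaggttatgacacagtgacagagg
Htr1d, the member with the strongest response, had 3 ETS cores in the printed stretch and no AGAACA or TGTTCT in either of its windows, whereas Htr2a, with a match, was not called in any comparison. These matches describe letters only and do not show binding.

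Htr1a, the autoreceptor of the serotonin neuron cell body, was lower after DEX in the average over phenotypes. The gene (ENSMUSG00000021721.5) spans chr13:105443639-105448122. Its normalized counts were 5744, 6701 and 6064 in control saline libraries and 4971, 6124 and 5592 in control DEX libraries, so the control groups overlapped. In PS mice they were 7072 and 5449.6 with saline and 5171, 4954 and 4804 with DEX. In AS mice they were 5949, 5641 and 6041 with saline and 5102 and 4674 with DEX. Each DEX library of the stressed mice thus lay below each saline library of its phenotype. With so few libraries a group, this separation was not set against a share of all genes. The log2 fold change was -0.25 (SE 0.07, adjusted p = 0.0677) in the average. In no single phenotype was it called: it was -0.15 (adjusted p = 0.579) for controls, -0.32 (adjusted p = 0.709) for PS mice and -0.27 (adjusted p = 0.526) for AS mice.

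Htr5b, a Gi/o-coupled receptor gene that is intact in rodents and a pseudogene in humans, also was lower in the average. It (ENSMUSG00000050534.8) spans chr1:121509842-121528465 on the minus strand. In control saline libraries it had 751, 931 and 613 normalized counts, and in control DEX libraries it had 379.9, 733 and 712. PS saline libraries held 875 and 814, and PS DEX libraries held 390.1, 631 and 634. AS saline libraries held 651, 946 and 1237, and AS DEX libraries held 549 and 319.6. The lowest library in each DEX group (con_dex_101, dep1_dex_6 and dep2_dex_42) lay well below its partners. The groups overlapped in controls but not in PS or AS mice, a separation not set against a share of all genes. The average log2 fold change was -0.71 (SE 0.19, adjusted p = 0.0668). Within phenotypes it was -0.37 (SE 0.31, adjusted p = 0.638) in controls, -0.65 (SE 0.35, adjusted p = 0.9999) in PS and -1.12 (SE 0.35, adjusted p = 0.286) in AS mice. The AS value was called under some other settings, with an adjusted p of 0.0277 with library weights and 0.060 with DESeq2. The AS saline library dep2_sal_40, with the highest Htr5b count, had the lowest of these weights (0.184).

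The average calls of Htr1a and Htr5b were also lost without some single libraries. Of 16 fits, each without a single library, 8 lost the call of Htr1a and 8 that of Htr5b, with adjusted p-values up to 0.265 for Htr1a and 0.295 for Htr5b, both without dep2_dex_42. The other losses for Htr1a came without con_sal_104, con_dex_101, con_dex_122, dep1_sal_62, dep1_dex_34, dep1_dex_64 or dep2_dex_38, and those for Htr5b without con_sal_104, con_dex_101, dep1_sal_62, dep1_sal_68, dep1_dex_6, dep2_sal_14 or dep2_sal_40. The log2 fold changes stayed between -0.31 and -0.18 for Htr1a and between -0.84 and -0.58 for Htr5b.

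Serotonin neuron markers were read beside these genes. A serotonin neuron score, the mean log2 deviation of 10 marker genes (Tph2, Slc6a4, Slc18a2, Fev, Gata2, Gata3, Lmx1b, En1, Gchfr and Slc22a3), ranged from -0.17 to 0.41 in the saline libraries and from -0.23 to 0.10 in the DEX libraries. The markers summed to 269909 to 387191 and 250227 to 372831 normalized counts. Pooled over phenotypes, the treatments thus overlapped. Within each phenotype the mean score was lower with DEX. It was 0.107 with saline and -0.0056 with DEX in controls, 0.062 and -0.130 in PS, and 0.080 and -0.140 in AS mice. In AS mice the scores did not overlap, by a narrow margin (lowest saline -0.0441, highest DEX -0.0457). Of the 10 markers, 1 (Slc22a3) was called lower in the average. The 3 DEX libraries lowest in Htr5b, dep2_dex_42, con_dex_101 and dep1_dex_6, had scores of -0.23, -0.17 and -0.11, the last being the highest of the PS DEX group. The saline library dep1_sal_68 had a score of -0.17 with 814 normalized counts of Htr5b. It differs from those 3 libraries in treatment as well, and whether the score had a causal part in the Htr5b counts was not tested. With the score as a covariate, the average log2 fold change was -0.15 (adjusted p = 0.400) for Htr1a, -0.46 (adjusted p = 0.426) for Htr5b and 0.92 (adjusted p = 3.83e-05) for Htr1d. Because the score includes Slc22a3, itself called lower with DEX, this covariate may remove part of a DEX effect. In bulk tissue, fewer cells of a type and less RNA per cell cannot be told apart.

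Within groups, Htr5b changed by 1.46 log2 units per unit of the score (SE 0.53, adjusted p = 0.291) and Htr1a by 0.55 (SE 0.17, adjusted p = 0.251). None of the 9 receptor genes was called for this slope at an adjusted p under 0.1 by limma, beside 0.0345% of all genes. At an unadjusted p under 0.05 by limma, 2 of them (Htr1a and Htr5b) passed. The share of all genes passing that unadjusted threshold was not counted, so these 2 are not read against a background. The slope of Htr1d was 0.39 (SE 0.24) and that of Htr4 was -1.12 (SE 0.55).

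**Figure D4:**
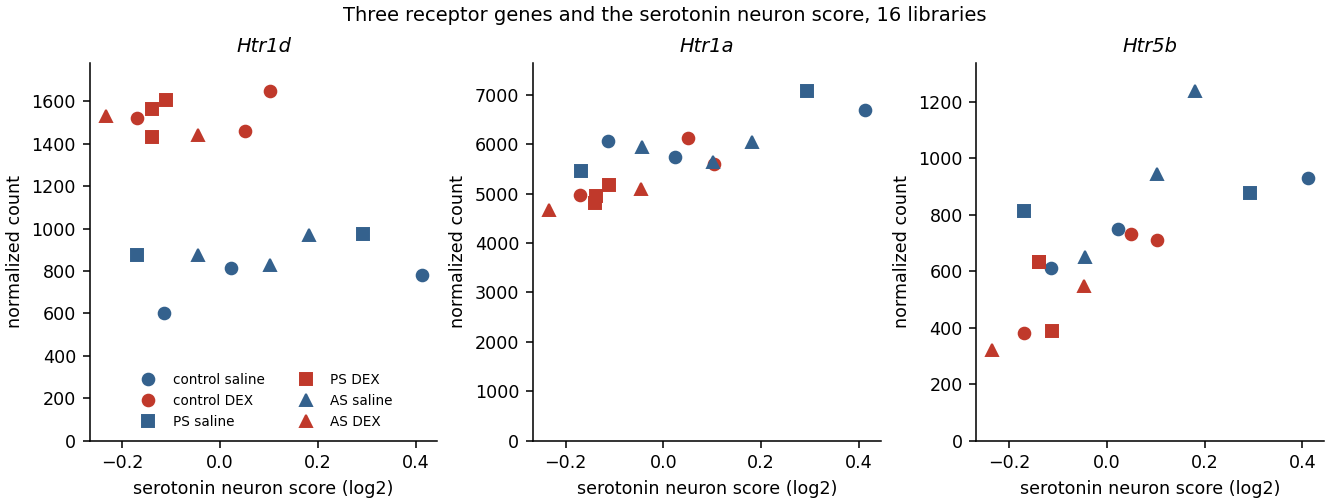
Normalized counts (vertical axes, from 0) of Htr1d, Htr1a and Htr5b against the serotonin neuron score (horizontal axis, mean log2 deviation of the marker genes) in 16 libraries, blue for saline and red for DEX, with circles for controls, squares for PS and triangles for AS mice. Pooled over phenotypes, Htr1d separates by treatment where the scores of the treatments overlap, while Htr1a and Htr5b do not separate by treatment.

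Some markers of other cells moved with DEX as well. Of 8 myelin markers 3 were called lower in the average, and of 8 microglia markers 2 were called lower, beside 4.31% of all genes called in either direction. None of the listed astrocyte, ependymal, choroid plexus, dopamine neuron, GABA neuron or glutamate neuron markers was called in the average. The 8 myelin markers summed to 133669 to 219770 normalized counts in the saline libraries and 131871 to 185539 in the DEX libraries. With a myelin score as a covariate, the average log2 fold change was -0.32 (adjusted p = 0.223) for Htr1a and -0.85 (adjusted p = 0.328) for Htr5b. With a choroid plexus score it was -0.28 (adjusted p = 0.0128) for Htr1a and -0.80 (adjusted p = 0.0171) for Htr5b. Whether these markers had a causal part in the receptor values was not tested.

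The nearest profiles to Htr5b were those of Gbp3, Ifit3 and Ifitm3, all interferon-responsive genes, with root mean square differences of 0.40, 0.44 and 0.46 against a median of 1.357. The nearest to Htr1a were Lrrk1, a kinase gene, Slc22a3, a transporter of monoamines that is also in the serotonin neuron score, and Ccdc86, with differences of 0.45, 0.48 and 0.48. The profiles were over the same 16 libraries and share their groups and their tissue content.

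Htr1b, the terminal autoreceptor gene (chr9:81628291-81633828, minus strand), was not called in any comparison. In PS mice its normalized counts were 2587 and 1902 with saline and 1911, 1700.4 and 1749 with DEX, with 1 DEX library just above the lower saline library. The log2 fold change was -0.31 (SE 0.13, adjusted p = 0.939) in PS mice and -0.16 (SE 0.07, adjusted p = 0.356) in the average. An antisense gene, D430036J16Rik, overlaps 852 exon bases (18.0%) of Htr1b and had 143 to 269 normalized counts. The libraries kept strand, but whether counting used it was not stated, so reads of the pair may not have been separated.

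The remaining receptor genes did not pass the test with DEX. The Gq-coupled genes Htr2a and Htr2c had average log2 fold changes of 0.15 (95% interval -0.21 to 0.51) and 0.02 (-0.21 to 0.26). Those of the Gs-coupled genes Htr4 and Htr7 were 0.18 (-0.20 to 0.57) and -0.11 (-0.34 to 0.13), and that of the Gi/o-coupled Htr5a was 0.16 (-0.20 to 0.52). Htr2c ranged from 5123 to 8758 normalized counts in saline and from 5325 to 8323 in DEX libraries. A fall as large as that of Htr1a in the average lay within the interval of Htr7 alone. A rise of that size lay within the intervals of Htr2a, Htr4 and Htr5a, and just within that of Htr2c.

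Interaction terms compared the DEX effects of the phenotypes. For Htr1d, the DEX effect was smaller by 0.36 in PS than in controls (95% interval -0.75 to 0.03, unadjusted p = 0.0690 by limma) and by 0.35 in AS than in controls (-0.74 to 0.04, unadjusted p = 0.0767 by limma). The DEX effect on Htr5b in AS minus that in controls was -0.75 (-1.75 to 0.24). None of the 9 genes was called for an interaction at an adjusted p under 0.1 by limma, edgeR or DESeq2, and none had an unadjusted p under 0.05. Over all genes 0.0% were called for the PS minus control difference, 0.0% for the AS minus control difference and 0.0% for the AS minus PS difference, and the share with an unadjusted p under 0.05 was 2.1%, 4.02% and 2.9%.

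Chronic stress did not bring any receptor gene past the threshold in saline-treated mice. Of all genes, 0.0% were called in PS mice against controls, 0.0% in AS mice against controls and 0.0% between AS and PS mice. At an unadjusted p under 0.05 by limma, 1 of 9 receptor genes passed in each of these comparisons, and edgeR and DESeq2 called 0 of 9 as well. The shares of all genes at this unadjusted p were 7.67%, 2.39% and 3.41%.

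Htr1d was the receptor gene that passed in both comparisons with controls. Its log2 fold change was 0.35 (SE 0.14, adjusted p = 0.571) in PS and 0.29 (SE 0.12, adjusted p = 0.998) in AS mice. The 5 saline libraries of stressed mice (829 to 976 normalized counts) lay above the 3 of controls (600.2 to 812). After DEX, the log2 difference from controls was -0.01 (95% interval -0.27 to 0.25) in PS and -0.05 (-0.34 to 0.24) in AS mice, and the DEX libraries of the 3 phenotypes shared a range of 1430 to 1648. The comparisons in saline share the control saline libraries with the DEX effect in controls, so a low control saline level enters both.

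**Figure D5:**
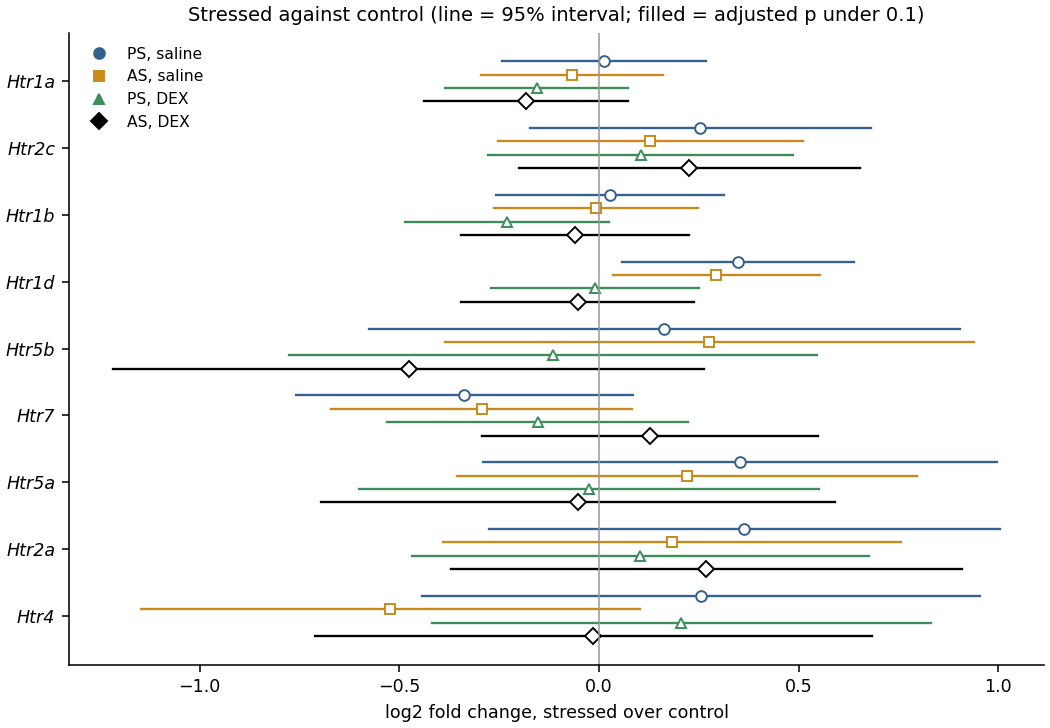
Log2 fold change of stressed over control mice (horizontal axis) for the 9 receptor genes, in saline and after DEX, with 95% intervals as lines. All symbols are open because no adjusted p fell under 0.1, and the intervals of Htr1d in saline lie just to the right of 0.

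Htr4, a Gs-coupled receptor gene, passed at an unadjusted p in AS against PS mice. Its normalized counts were 237 and 259.5 in PS saline libraries and 227, 138 and 95.2 in AS saline libraries. The groups did not overlap, although dep2_sal_8 lay close to the PS libraries. That separation was not set against a share of all genes. The library with the lowest count, dep2_sal_40, also had the lowest library weight (0.184). The log2 fold change was -0.78 (SE 0.33, adjusted p = 0.728). It was among the lowest of the receptor genes in level, and its residual SD was high (0.38).

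Htr7, which couples to Gs, was lower in stressed saline mice without passing any threshold. Its normalized counts were 1067, 986 and 1213 in control saline libraries, 945 and 779.6 in PS saline libraries and 1140, 880.3 and 690.1 in AS saline libraries. The log2 fold change was -0.34 (SE 0.20) in PS and -0.29 (SE 0.18) in AS mice. Only the PS group did not overlap with controls, which was not set against a share of all genes. Htr5a, Htr2a and Htr2c had positive log2 fold changes in PS saline mice (0.35, 0.36 and 0.25), each with an interval that held 0.

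After DEX, 0 of 9 receptor genes were called between phenotypes at an adjusted p under 0.1 or passed an unadjusted p under 0.05 by limma, and edgeR and DESeq2 called 0 of 9. Of all genes, 0.0% were called between PS mice and controls, 0.00689% between AS mice and controls and 0.0% between AS and PS mice. With both treatments averaged, 0 of 9 were called or had an unadjusted p under 0.05, beside 0.0% of all genes called for PS and 0.0138% for AS against control.

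Genes acting downstream of the receptors were read from lists, and none of those listed was called in a comparison other than those of DEX against saline. Each count in the average stands beside the 4.31% of all genes called there, and with so few genes a list, none is read as differing from that share. Of 16 Gi/o signal genes, 1 was called in the average, Rgs9, a regulator that speeds G protein shut-off, with a log2 fold change of 0.37 (adjusted p = 0.0885). The median over these 16 genes was -0.04. Of 11 Gq signal genes, 2 were called higher in the average: Itpr2, an inositol trisphosphate receptor gene (0.58, adjusted p = 0.00121), and Prkca, a protein kinase C gene (0.40, adjusted p = 0.0133). Itpr2 was also called in controls (0.68, adjusted p = 0.0367). The median over the Gq genes was 0.28. Of 16 Gs signal genes, 1 was called, Adcy8, an adenylyl cyclase gene, which fell by 0.51 (adjusted p = 0.0512), and their median was 0.04. Of 13 genes of receptor partners and desensitization with a row, 0 were called by limma in the average, with a median of -0.02. At an unadjusted p under 0.05 by limma, 3 of these 13 passed in the average, beside 14% of all genes. The same threshold was passed by 4 of the 16 Gi/o, 4 of the 11 Gq and 2 of the 16 Gs signal genes.

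Among 11 genes that regulate receptor genes or edit receptor RNA, 2 were called in the average, both lower, beside 4.31% of all genes in either direction. Nr3c1, which encodes the glucocorticoid receptor, fell by 0.54 (adjusted p = 0.000423) in the average, by 0.61 (adjusted p = 0.0596) in PS and by 0.72 (adjusted p = 0.0202) in AS mice. Nr3c2, which encodes the mineralocorticoid receptor, fell by 0.36 (adjusted p = 0.0299) in the average. The editing genes Adar, Adarb1 and Adarb2 were not called. Of 14 genes of serotonin synthesis, transport and breakdown with a row, 2 were called in the average, both lower and beside the same 4.31%: Qdpr, which regenerates the cofactor of tryptophan hydroxylase (fell by 0.34, adjusted p = 0.0632), and Slc22a3 (fell by 0.51, adjusted p = 0.0310). The average log2 fold change of Tph2 was -0.18 (SE 0.14, adjusted p = 0.567) and that of Slc6a4 was -0.07 (SE 0.12, adjusted p = 0.817).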

How the data were processed

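Each library was made from polyadenylated RNA of DRN punches with a strand-specific kit and sequenced in paired-end mode. Per the submitters' processing notes, the authors used fastp 0.20.1, HISAT2 2.2.1 on GRCm38 (mm10), featureCounts (Subread 2.0) and DESeq2 1.36.0. The deposited values are a signal: the authors' counts per gene divided by 1 size factor per library. Whole reads were recovered from the steps of the values (100% whole within 0.01; in con_sal_102 and dep2_dex_38 the size factor was too near 1 for this to be judged). Tables of the authors' own comparisons (fold changes and p-values) were not used. A stated minimum of 10 reads per sample was not met in some library by 973 listed genes.

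Libraries were grouped by their labels. Log2(normalized count + 1) was fitted with limma 3.58.1 (R 4.3.3) as 6 group means over all 16 libraries, with 10 residual degrees of freedom, a mean-variance trend and Benjamini-Hochberg adjustment over all 14504 genes in each of 15 contrasts. The call threshold was an adjusted p of 0.1. Fold changes are on this log2 scale, with limma's standard errors and 95% intervals. The pipeline was tested on simulated data. Replicate pairs differed beyond sampling noise (lowest chi-square per degree of freedom 22.4 over 14 pairs). The highest value was 278, for dep2_sal_8 and dep2_sal_40 in AS saline. Whether libraries came from separate mice is given only by their separate numbers, and p-values measure the spread between these libraries. Counting limits the precision of the least abundant genes.

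Lengths came from GENCODE vM21, which matched 14493 genes (99.92%). The study describes more DRN libraries than the 16 used; the others were not analysed here. The receptor genes and the gene lists were chosen with earlier results of these data known. Named were all receptor genes, other listed pathway genes called in a contrast (up to 5 a list), Tph2, Slc6a4, Ttr and Fkbp5 as checks, and the 3 nearest profiles of each called receptor gene among genes with a mean of at least 100. Alternatives were pseudocounts, filters, TMM and quantile scaling, library weights, robust variance, only the groups compared, covariates, edgeR 4.0.16 and DESeq2 1.42.0 on the recovered reads, and leaving out each library.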

Additional observations from a re-analysis of the deposited data

How the results depend on the processing

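The number of receptor genes called stayed within 1.5 times its main value in 470 of 487 combinations of a comparison and a setting, of which 364 were of comparisons with 0 called, and no direction reversed for the receptor genes and comparisons with an unadjusted p under 0.05. In AS mice, 1 receptor gene was called with DEX, but 2 (Htr1d and Htr5b) with library weights, with the choroid plexus covariate, with the ependymal covariate and with DESeq2, and 0 when only the groups compared entered the fit. In the average over phenotypes, 3 were called, but 1 (Htr1d) with the serotonin neuron covariate and with the myelin covariate. Leaving out 1 library gave 0 to 1 called genes in PS (0 without dep1_sal_62, dep1_sal_68 or dep1_dex_34), 0 to 1 in AS (0 without dep2_sal_14, dep2_dex_38 or dep2_dex_42) and 1 to 3 in the average (1 without con_sal_104, con_dex_101, dep1_sal_62 or dep2_dex_42). Apart from fewer libraries or samples in a fit, the cause was not tested. The count in controls was 1 in every setting. Of the 8 neighboring pairs in the order of per-length levels, 7 kept their order with the longest transcript, 7 with the saline libraries alone, and 7 to 8 when 1 library was left out. Other scalings moved the median of all genes by at most 0.0335. No paired analysis was possible because the replicate numbers in the labels differ between groups. With 2 or 3 libraries a group, changes in the more variable genes (Htr5b, Htr4, Htr5a and Htr2a) had wide intervals.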
